A study of Mus musculus with 51 samples.

Results

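The comparison is of the C57BL6/Babr (B6) allele with the CAST/EiJ (CAST) allele for H3K4me3 in extra-embryonic ectoderm (ExE). ExE is the polar trophoblast that lies on top of the epiblast and gives rise to the chorion and much of the placenta. Members were the autosomal H3K4me3 peaks of the ExE allelic count table. Of 40468 such peaks, 23211 were informative, with 20 or more reads of 1 allele in at least 1 of the wild-type libraries. A peak was called strain-specific when edgeR's quasi-likelihood F test gave an adjusted p-value below 0.05 in both reciprocal crosses with the same strain higher. This left 918 peaks, 520 with more reads on the B6 allele and 398 with more on the CAST allele.

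Of the 51 libraries of the series, the comparison rests on 4, which are B6/CAST ExE H3K4me3 replicates 1 and 2 and CAST/B6 ExE H3K4me3 replicates 1 and 2, with the mother written first. All embryos were wild-type F1 hybrids at embryonic day 6.5, and each library was made from a pool of about 8 ExE dissections (about 2500 cells) by native ultra-low-input chromatin immunoprecipitation (ChIP). The B6 allele is maternal in B6/CAST and paternal in CAST/B6, so a difference that follows the strain changes parent between the crosses. Groups used for comparison were matDKO/CAST ExE (2 libraries), wild-type epiblast of both crosses (4 libraries from pools of about 4 embryos) and ExE H3K27me3, H3K36me3 and input of the same wild-type crosses. In matDKO/CAST the mothers were of mixed B6 and 129 background and lost Dnmt3a and Dnmt3b in the oocyte through Zp3-cre, while the fathers were CAST. Strain, parent, 129 background and the deletion cannot be told apart in that cross.

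H3K4me3 is trimethylation of lysine on the tail of histone H3. It is laid down by SET1 and MLL complexes, is typical of active and poised promoters, and is strongest at promoters rich in CpG dinucleotides, whose unmethylated CpGs are bound by the CFP1 and MLL subunits. In an F1 hybrid both alleles lie in the same nuclei and meet the same transcription factors, so an allelic difference that follows the strain is a difference in cis or in how reads of the alleles are assigned. Imprinted differences, in contrast, follow the parent.

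The 4 libraries held 4.25 to 6.82 M reads assigned to an allele within peaks, of which 50.6 to 50.9% were B6. Replicates of a cross differed by more than sampling noise (chi-square per degree of freedom 1.33 to 1.37 per allele). Total H3K4me3 at marker promoters was compared with epiblast as a check of the dissection. Of 10 ExE genes, 4 were higher in every ExE library than in every epiblast library and 1 was lower. Of 8 epiblast genes with a value, 6 were lower in every ExE library, Pou5f1 among them (3.79 to 10.6 RPKM in ExE, 39.0 to 55.4 in epiblast). Of 11 visceral endoderm genes, 5 were higher in ExE, with a summed level of 128 to 193 RPKM against 94.3 to 149. The 8 markers of maternal decidua and blood summed to 11.1 to 17.7 RPKM in ExE and 10.2 to 19.2 in epiblast, and 3 of them were higher in every ExE library. Among these were the endothelial genes Pecam1 (0.483 to 1.76 RPKM in ExE, 0.0747 to 0.429 in epiblast) and Cdh5 (0.870 to 1.78 and 0.101 to 0.659). Both alleles are read within each library, and the part of other cell types in the strain effect was not tested.

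Before the crosses were combined, 13.6% of informative peaks differed between the alleles in B6/CAST and 5.95% in CAST/B6. Among informative peaks 3.96% were strain-specific, 2.24% with B6 and 1.71% with CAST higher. Effect sizes are the log2 ratio of B6 to CAST reads from a joint fit over both crosses, in which the parent is a separate term. The joint fit used the same 4 libraries as the calls, so its ratios describe the chosen peaks and are no further test. The median absolute log2 ratio of the called peaks was 1.55 (interquartile range 0.85 to 2.43). It was at least 1 in 634 peaks, at least 2 in 328 and at least 3 in 140, and the smallest was 0.25. B6-higher and CAST-higher peaks had like sizes, with medians of 1.53 and 1.56. With DESeq2 176 peaks were called, and without 1 library at a time 304 to 654, the fewest (304) without CAST/B6 replicate 2 and then 408 without B6/CAST replicate 1 and 424 without CAST/B6 replicate 1.

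The joint fit alone called 4408 peaks (19% of informative peaks), 2241 with B6 higher (9.65%) and 2167 with CAST higher (9.34%), so 3490 peaks passed on the average of both crosses but not in each cross. DESeq2 called 1909 in the joint comparison (1069 with B6 and 840 with CAST higher). Without 1 library the joint calls were 2457 to 3110, with 2457 without B6/CAST replicate 1, 2601 without CAST/B6 replicate 2 and 2621 without CAST/B6 replicate 1, and up to 59.3% of them were B6-higher. With each library as a block for its allele columns the joint calls were 2985 with B6 and 3114 with CAST higher. The balance also depended on how the alleles were scaled. With both allele columns scaled by the library total, so that the general excess of B6 reads was left in, the joint calls were 2981 against 1666 and the strain-specific calls 664 against 375, which is 63.9% B6-higher against 56.6% in the 918. The median log2 ratio over all informative peaks was −0.02 with each allele column scaled on its own and 0.04 with the shared total.

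**Figure D1:**
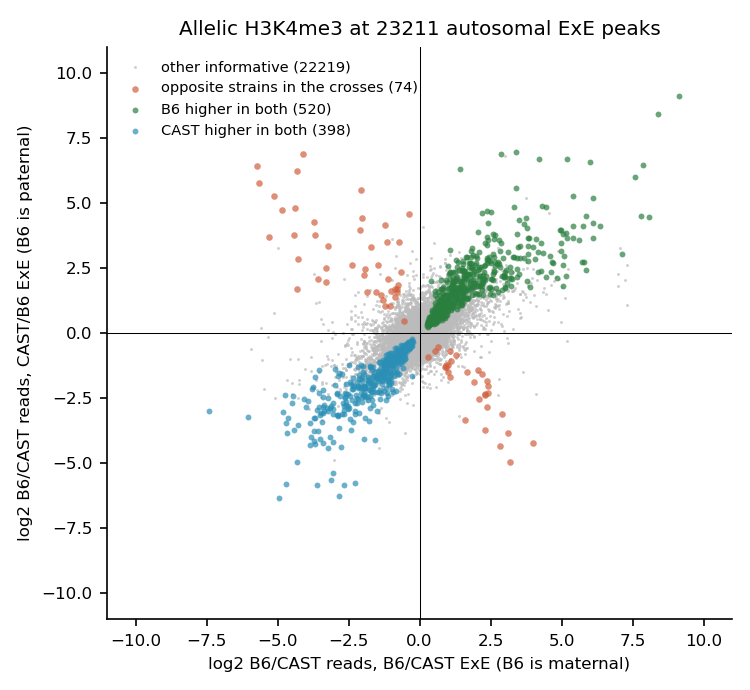
Log2 ratio of B6 to CAST reads in B6/CAST ExE (x axis) and in CAST/B6 ExE (y axis) for the 23211 informative peaks, with B6-higher and CAST-higher strain-specific peaks and peaks imprinted in both crosses in colour. The 520 and 398 strain-specific peaks lie along the rising diagonal and the 74 imprinted peaks along the falling one.

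Near-complete restriction to 1 allele was uncommon and mostly of the B6 allele. More than 95% of reads came from a single allele in 40 strain-specific peaks, 33 of them B6 and 7 CAST. In 4 B6-higher peaks no CAST read was found over the 4 libraries. Among these is the H2-Q1 peak (chr17:35319500-35322000), with 80 of 80 reads from B6. By the limit that a count of 0 allows (3 reads, counting error only), its CAST reads in these libraries may be up to 3.75% of the B6 reads. That is B6 at least 26.7-fold higher. In epiblast the B6 share of H2-Q1 was 89.4 to 98.2%, and in matDKO/CAST it was 100 and 83.3%. Its input was 0.195 RPKM, and the assignment of its reads is uncertain. The input signal, which carries no antibody selection, moved with this class. Over the 33 B6-restricted peaks its median was 0.369 RPKM and over the 7 CAST-restricted peaks 0.450, against 0.495 over all informative peaks. Input below 0.2 RPKM was found at 23 B6-higher peaks (4.42%), 1 CAST-higher peak (0.251%) and 0.197% of the peaks that were not called. Input over 0.8 RPKM was found at 8 CAST-higher peaks (2.01%), none of the 520 B6-higher peaks and 6 of the 22293 others (0.0269%). The reads were aligned to the B6 reference masked at B6 and CAST variants, and a sequence that CAST lacks or holds in more copies was not looked for. Without peaks of input below 0.2 RPKM 894 of the 918 remained, 497 with B6 and 397 with CAST higher.

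Called peaks were smaller than other informative peaks. Their median length was 3.5 kb against 4.5 kb and their median total H3K4me3 in ExE 1.91 against 3.01 RPKM. The median number of allelic reads over the 4 libraries was 290 against 376, although the reads assigned to an allele per total signal were higher (1.27 against 0.99, relative to the median informative peak). Repeats covered a median of 24.3% of a called peak and 19.5% of the others. Called effects were larger where reads were fewer. Peaks with a log2 ratio below 1 had a median of 1297 reads, those of 1 to 2 had 269, and those of 2 or more had 119.

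Promoters are shown for 4 genes to set CpG-rich promoters beside CpG-poor ones. Slc35e1 and Hjurp lie in CAST-higher peaks, Gm8909 and Lrrc10 in B6-higher peaks, and the choice was made after their values were seen. The sequences are those of RefSeq (GRCm38.p6, the B6 reference), 250 bases before to 50 bases after the start of the gene, on the strand of the gene. The CpG dinucleotides are in capitals.
Slc35e1 (chr8:72492565-72492864, minus strand): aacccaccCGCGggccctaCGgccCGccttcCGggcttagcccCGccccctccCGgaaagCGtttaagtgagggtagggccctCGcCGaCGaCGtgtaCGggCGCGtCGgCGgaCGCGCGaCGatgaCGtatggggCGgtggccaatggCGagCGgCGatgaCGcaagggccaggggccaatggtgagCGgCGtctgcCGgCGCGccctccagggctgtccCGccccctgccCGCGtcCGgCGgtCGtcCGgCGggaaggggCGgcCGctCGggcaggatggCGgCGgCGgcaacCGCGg
Hjurp (chr1:88277530-88277829, minus strand): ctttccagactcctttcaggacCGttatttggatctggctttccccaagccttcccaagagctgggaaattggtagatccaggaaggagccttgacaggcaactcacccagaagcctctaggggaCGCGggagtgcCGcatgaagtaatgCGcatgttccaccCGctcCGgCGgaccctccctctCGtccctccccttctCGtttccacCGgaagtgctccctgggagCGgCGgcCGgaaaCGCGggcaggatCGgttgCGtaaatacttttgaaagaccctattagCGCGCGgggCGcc
Gm8909 (chr17:36168488-36168787, minus strand): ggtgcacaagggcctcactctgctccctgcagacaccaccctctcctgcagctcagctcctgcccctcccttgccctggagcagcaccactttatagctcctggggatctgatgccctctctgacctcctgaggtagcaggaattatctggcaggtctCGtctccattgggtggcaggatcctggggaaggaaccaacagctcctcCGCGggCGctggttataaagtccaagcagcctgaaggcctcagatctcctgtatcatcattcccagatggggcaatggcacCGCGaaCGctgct
Lrrc10 (chr10:117045091-117045390, plus strand): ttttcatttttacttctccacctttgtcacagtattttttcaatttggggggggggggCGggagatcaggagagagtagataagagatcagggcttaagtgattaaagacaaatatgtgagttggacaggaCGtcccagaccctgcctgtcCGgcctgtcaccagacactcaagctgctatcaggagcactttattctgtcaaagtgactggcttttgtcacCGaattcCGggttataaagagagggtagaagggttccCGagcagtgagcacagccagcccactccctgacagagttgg

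The Slc35e1 promoter held 48 CpGs and that of Hjurp 22, whereas the promoter of Gm8909 held 7 and that of Lrrc10 held 6. Gm8909 and Lrrc10 also held the letters TATAAA, at positions 220 and 235 of the 300 bases shown. Over the 16050 promoters of the RefSeq table that lay in an informative peak the median was 20 CpGs. Over the 373 in a strain-specific peak it was 15, namely 18 where the log2 ratio was below 1 (258 promoters) and 7 where it was 1 or more (115 promoters). The medians were 16 for B6-higher and 14 for CAST-higher peaks, so the promoters shown do not stand for their strain, and those of the CAST-higher peaks of Pxt1, Ccdc152 and AW146154 held 8, 10 and 6. For comparison, all 32851 promoters of the table had a median of 7. TATAAA on either strand was found in 13.6% of all promoters, in 7.08% of those in informative peaks and in 12.1% of those in strain-specific peaks (13.5% for B6-higher and 9.93% for CAST-higher peaks). A match of these letters is a description of the B6 sequence and does not mark a bound site, and the CAST sequence was not used here.

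Of the strain-specific peaks with a protein-coding start site and at least 200 reads, the 7 with the largest ratio towards CAST were those of Ubxn7, Ccdc152, Osbpl10, Slc35e1, Fam83a, Hjurp with Trpm8, and Pxt1. Hjurp encodes the chaperone that deposits the centromeric histone CENP-A, and Trpm8, whose start site lies in the same peak, a cold-sensing ion channel. The peak (chr1:88275500-88280500) had 2601 allelic reads and a B6 share of 11.9 and 10.3% in B6/CAST and 13.1 and 10.7% in CAST/B6 (11.5% ± 1.28, SD, n = 4). The log2 ratio was −2.99 ± 0.08 (SE, adjusted p = 3.86e-34, edgeR). The 4 libraries lay within 3 percentage points of each other. Its input was 2.27 RPKM against a median of 0.495, and its reads assigned per total signal were 0.342 of the median peak. Whether the count of copies differs between the strains was not tested.

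Ubxn7 encodes a cofactor of the p97 segregase in ubiquitin-dependent turnover. Its peak (chr16:32330000-32337000) had a B6 share of 9.43 and 11.4% in B6/CAST and 4.46 and 8.47% in CAST/B6, from 584 reads (log2 ratio −3.60 ± 0.19 SE). Slc35e1, a member of the nucleotide sugar transporter family, had 17.8 and 13.1% in B6/CAST and 7.95 and 6.17% in CAST/B6, from 331 reads (chr8:72490000-72496000, log2 ratio −3.09 ± 0.22 SE). Both peaks were strong in total signal (14.1 and 16.6 RPKM), but the reads assigned to an allele were only 0.177 and 0.0993 of those of the median peak per total signal. The allelic values of Ubxn7 and Slc35e1 thus rest on a small part of the peak.

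Osbpl10 encodes an oxysterol-binding protein, and Fam83a a kinase-associated protein of the FAM83 family. The B6 share at Osbpl10 (chr9:115053000-115055000) was 8.78% ± 1.31 and at Fam83a (chr15:57999500-58003500) 11.3% ± 1.22 (SD, n = 4 libraries each). At the peaks of Ccdc152 and Pxt1, the latter a gene of male germ cells, it was 8.62% ± 5.34 and 13.6% ± 3.92. All 4 libraries of each of these genes were below 18%.

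Towards B6, the 7 with the largest ratio under the same limits were those of Mpp7, Gm8909, Atp9a, Slc25a12, Eps8l1, Lrrc10 and Cyp4f39. Mpp7 encodes a scaffold protein of cell junctions and polarity. Its peak (chr18:7607500-7611000) had a B6 share of 97.6 and 100.0% in B6/CAST and 94.1 and 97.2% in CAST/B6, with 6 CAST reads of 246 in all (log2 ratio 5.15 ± 0.35 SE, adjusted p = 6.27e-17, edgeR). Gm8909, a class I gene of the major histocompatibility complex (MHC), had 97.2 and 98.8% in B6/CAST and 97.1 and 93.3% in CAST/B6, from 269 reads (chr17:36166500-36169500). The inputs at Mpp7 and Gm8909 were 0.272 and 0.253 RPKM. Class I genes are near-identical copies of each other, so the assignment of their reads is uncertain.

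Atp9a, a phospholipid flippase of endosomes, had a B6 share of 94.1% ± 2.02 (chr2:168668500-168672000, 729 reads). Slc25a12 encodes the mitochondrial aspartate-glutamate carrier and had 89.0% ± 2.69 (chr2:71346500-71354500, 853 reads, SD, n = 4 for both). The replicates of Eps8l1 and Lrrc10, an actin regulator and a protein of heart muscle, were more spread. Lrrc10 had 90.1 and 81.2% in B6/CAST and 69.0 and 82.1% in CAST/B6, and Eps8l1 had 89.7, 83.6, 68.4 and 84.8% in the same order. In both genes the lowest library was CAST/B6 replicate 1, and every library was above 68%. Cyp4f39, a fatty acid hydroxylase of the cytochrome P450 family, had 79.9 and 66.9% in B6/CAST and 89.9 and 79.6% in CAST/B6 (chr17:32491000-32494000).

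Among the strain-specific peaks with the most reads, most called effects were small and the replicates tight. Hspa8, the constitutive HSC70 chaperone, had 5126 reads and a B6 share of 55.4% ± 1.49 (log2 ratio 0.25 ± 0.06 SE, adjusted p = 0.000569). Uqcrc2, a core subunit of mitochondrial complex III, had 57.1% ± 1.08 from 4480 reads. The shared peak of the zinc finger genes Zfp251 and Zfp7 had 56.4% ± 1.49 and that of the ribosomal protein gene Rpl21 55.4% ± 1.97 (SD, n = 4). Without CAST/B6 replicate 2 the Rpl21 peak no longer passed the joint fit. On the CAST side the peak with the most reads, that of AW146154 and Gm20449 on chromosome 7, was also among those with a large ratio. It had 18.8 and 18.4% in B6/CAST and 20.1 and 19.9% in CAST/B6, from 5383 reads (chr7:41498000-41501500, log2 ratio −2.13 ± 0.06 SE). AW146154 is a zinc finger gene in a cluster of like genes, and its input was 0.922 RPKM. Prdm6, a transcriptional repressor of smooth muscle, had 46.4% ± 0.86, and Pom121l2 had 42.8% ± 2.71.

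**Figure D2:**
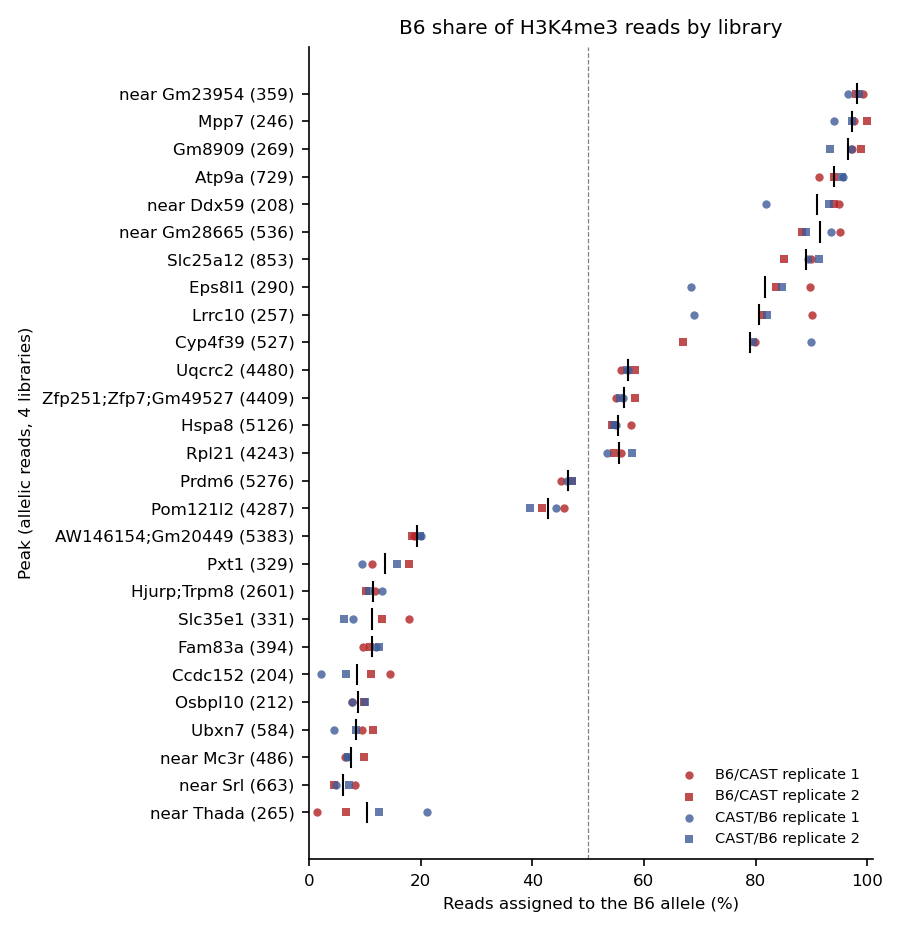
Percent of allelic reads from the B6 allele (x axis) in each of the 4 wild-type ExE libraries at named strain-specific peaks, with allelic reads in brackets after the gene. The peaks had the largest ratio at a protein-coding start site, the most reads, or the largest ratio without a start site within 10 kb. Both rankings by ratio are among peaks with at least 200 reads. All libraries of a peak lie on the same side of the 50% line. The libraries span 69.0 to 90.1% at Lrrc10 and 54.3 to 57.6% at Hspa8.

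Strain-specific peaks held a start site less often than other peaks. A start site of any gene of the GENCODE annotation lay in 438 of 918 called peaks (47.7%, exact 95% binomial interval 44.4 to 51.0%), against 61.5% of the informative peaks that were not called. The share was 52.5% for B6-higher and 41.5% for CAST-higher peaks. With protein-coding start sites alone it was 37.1 and 34.9%, so most of the gap between the strains came from start sites of other genes. Of the peaks that were not called 55.9% held a protein-coding start site. Of the called peaks 25.2% lay within 10 kb of a start site without holding one and 27.1% lay farther away, against 18.5 and 20.05% of the others. Peaks beyond 100 kb were rare in both (0.763 and 0.498%). Regions are not replicates, so no test was made on these shares, and the intervals cover counting alone.

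The lower share of start sites was also seen at like depth. Of peaks with 200 to 499 reads, 3.76% of those with a start site were strain-specific (96 of 2551), 7.75% of those within 10 kb (80 of 1032) and 6.49% of those farther away (71 of 1094). With 500 to 999 reads the shares were 3.13, 9.27 and 7.49%. Under 100 reads the order was not the same (5.08, 2.89 and 5.13%). Of called peaks with at least 200 reads 65.0% held a start site, against 82.3% of the others. Called promoter peaks with a log2 ratio below 1 held 2.05 CpGs per 100 bp (median of 248), those of 1 to 2 held 1.74 (median of 115) and those of 2 or more 1.85 (median of 75), against 2.29 over all 14144 informative peaks with a start site.

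**Figure D3:**
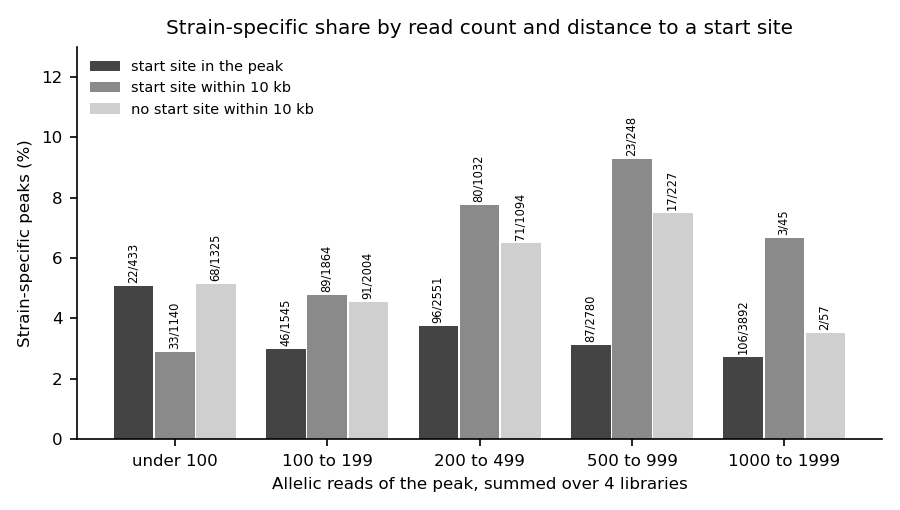
Percent of informative peaks that were strain-specific (y axis) by the number of allelic reads over the 4 libraries (x axis) for peaks with a start site, within 10 kb of one and beyond 10 kb. Between 200 and 999 reads the share is 3.13 to 3.76% at start sites and 6.49 to 9.27% elsewhere. Peaks of 2000 or more reads are left out, since only 20 and 11 of them lay within and beyond 10 kb.

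Among called peaks with at least 200 reads and no start site within 10 kb, the 3 with the largest ratio in each direction were as follows. Towards B6, the peak nearest to Gm23954 (chr18:77869500-77871500, 62834 bp from its start site and in an exon of the annotation) had 99.3 and 97.98% in B6/CAST and 96.6 and 98.5% in CAST/B6, from 359 reads. The peaks near Ddx59 and Gm28665 had 91.0% ± 6.19 and 91.5% ± 3.30 (SD, n = 4). The peak near Gm28665 was 60.4% repeat sequence, with an input of 0.199 RPKM. Towards CAST, the peak near Srl (chr16:4494500-4499000) had a B6 share of 8.16 and 4.44% in B6/CAST and 4.85 and 7.14% in CAST/B6, from 663 reads. The peaks near Mc3r and Thada had 7.54% ± 1.56 and 10.4% ± 8.38. The spread at Thada came from the CAST/B6 libraries (21.1 and 12.5%) against B6/CAST (1.52 and 6.67%).

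Strain-specific peaks were found on every autosome, from 2.73% of informative peaks on chromosome 2 to 5.00% on chromosome 4 (53 B6-higher and 27 CAST-higher). Called peaks were found near other called peaks more often than near informative peaks in general. Another called peak lay within 100 kb of 222 of the 918 (24.2%, exact 95% binomial interval 21.4 to 27.1%), against 15.6% around all informative peaks. With windows of 50 and 250 kb the values were 14.5 against 8.79% and 38.8 against 30.7%. For the calls of the joint fit they were 56.9 against 52.7% within 100 kb. Neighbouring called peaks tended to have the same strain higher. Of 122 pairs of neighbours within 100 kb, 85 did (69.7%, 60.7 to 77.7%), where the shares of the strains alone would give 50.9%. For the calls of the joint fit it was 929 of 1593 (58.3%, against 50.01%). Within 250 kb it was 131 of 207 strain-specific pairs (63.3%).

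Neighbours that were not called are given as a description, since those with the largest bias are left out of them by the rule. Informative peaks that were not called and lay within 5 kb of a called peak had a median log2 ratio of 0.07 towards the strain of that peak, and 59.6% of 161 were on its side. In the joint fit 12.4% of these 161 passed on its side and 5.59% on the other, against 7.35 and 7.84% of peaks beyond 250 kb. Near B6-higher peaks 11 passed on the same side and 8 on the other, and near CAST-higher peaks 9 and 1. At 20 to 50 kb the median was 0.01 with 53.0% of 1035 on its side, and beyond 250 kb it was 0.00 with 49.8%.

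Runs of at least 3 called peaks with the same strain higher and gaps of at most 100 kb numbered 10 and held 32 peaks. Of these 8 were B6-higher and 2 CAST-higher, and none was longer than 4 peaks. The B6-higher run on chromosome 13 (chr13:74439000-74566000) held 4 of the 5 informative peaks in its span, among them the start sites of the zinc finger gene Zfp825 and of Gm47435, E430024I08Rik and Gm47469. Zfp825 had a B6 share of 60.2% ± 2.01, E430024I08Rik 70.1% ± 2.65, Gm47469 71.5% ± 6.03 and Gm47435 80.1% ± 5.16 (SD, n = 4). The input of these 4 peaks was 0.142 to 0.320 RPKM, below the median of 0.495. The CAST-higher run on chromosome 17 (chr17:31253000-31313500) held all 4 informative peaks in its span, over Rsph1, a protein of the ciliary radial spoke, and Slc37a1, a sugar phosphate transporter. Their B6 shares lay close together, at 18.7% ± 4.44 and 24.7% ± 1.55 for the Slc37a1 peaks, 21.6% ± 2.31 for Rsph1 and 26.4% ± 7.95 for the peak next to it. Their input of 0.845 to 1.03 RPKM was above the median. Whether the number of copies moves with the strain in these runs was not tested.

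In the other runs named here the input was 0.389 to 0.514 RPKM. On chromosome 14 (chr14:119005000-119140500) the peaks of Uggt2, a glycoprotein folding sensor, and Hs6st3, a heparan sulphate sulphotransferase, were B6-higher, at 60.4 to 66.2%, and 3 of 4 informative peaks in the span were called. On chromosome 11 (chr11:119490000-119567000) Endov, an endonuclease for inosine in RNA, had a B6 share of 42.2% ± 1.39, Nptx1, a neuronal pentraxin, 25.8% ± 3.95 and the peak near Gm11762 18.3% ± 9.77. On chromosome 7 (chr7:80823000-80907000) Iqgap1, a scaffold of the actin skeleton, had 70.3% ± 2.37, the peak that holds the starts of Wdr73 and Nmb 62.8% ± 2.02, and a peak between them 86.3% ± 1.97, while 4 of 7 informative peaks in the span were not called.

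At the start sites of 25 regulators of trophoblast identity 1 of 28 informative peaks was strain-specific, against 3.10% of all 14144 start site peaks. It was that of Sox21, a repressor of the SOX family, with a B6 share of 45.8% ± 1.57 (log2 ratio −0.31 ± 0.06 SE), and it no longer passed the joint fit without CAST/B6 replicate 1. The group's median absolute log2 ratio was 0.08, against 0.14 over all start site peaks, with a median of 2345 reads against 950. None of 11 peaks of epiblast markers, of 37 of chromatin writers and readers or of 4 of decidua and blood markers was called. The joint fit called 2, 1, 3 and 0 peaks of these 4 groups, against 15.7% of all start site peaks.

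Zinc finger genes, many of which encode KRAB repressors of transposons and stand in clusters, had 27 strain-specific peaks of 355 (7.61%), 20 with B6 and 7 with CAST higher, against 3.10% of all start site peaks (273 with B6 and 165 with CAST higher). In the joint fit 51 were B6-higher and 28 CAST-higher (22.3%), against 1125 and 1091 of all start site peaks (15.7%). The median absolute log2 ratio over all 355 peaks, called or not, was 0.13, against 0.14 over all start site peaks. Among the called peaks with the most reads, Zfp324 had a B6 share of 57.3% ± 1.28 and Zfp472 60.2% ± 2.54. On the CAST side Zfp760 had 41.0% ± 1.63, Zfp948 42.6% ± 2.28 and Zfp94 41.9% ± 1.81.

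Of 14 peaks of MHC genes, which present antigens and are among the most variable genes between mouse strains, 3 were called, all B6-higher, against 3.10% of all start site peaks. The joint fit called 3 B6-higher and 2 CAST-higher. Besides H2-Q1, H2-K1 had 66.7% ± 2.34 and H2-D1 69.3% ± 2.27 (SD, n = 4), with every library between 63.6 and 71.9%. The reads of these genes are uncertain as those of Gm8909 are. Interferon-inducible and innate genes had 4 called of 25, and the joint fit called 5 B6-higher and 7 CAST-higher (48%, against 15.7% of all start site peaks). The 4 were Trim12c (70.4% ± 6.64) and the peak shared by Ifi35 and Rpl27 (57.1% ± 1.59) towards B6, and Oas1g (25.3% ± 3.92) and Gbp3 (32.0% ± 4.77) towards CAST. Of 51 peaks of detoxifying enzymes 2 were called (3.92%, against 3.10% of all start site peaks), both in a cytochrome P450 cluster on chromosome 17 (Cyp4f39, above, and Cyp4f17 at 60.1% ± 3.41). The joint fit called 10 of the 51 B6-higher and 3 CAST-higher (25.5%). Ribosomal proteins had 3 of 71 (4.23%), namely Rpl21, Rps21 at 58.8% ± 1.65 and Rpl27. All were B6-higher, while the joint fit called 10 B6-higher and 6 CAST-higher. These counts are small, and no group was tested.

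Visceral endoderm markers had 2 called of 15 (3.10% of all start site peaks were called), Amn at 59.2% ± 1.56 (not passing the joint comparison with DESeq2) and Spink1 at 67.7% ± 1.98, both towards B6. None of the placental gene families that diverge fast between rodents (prolactins, placental cathepsins and others) had an informative peak, and only 4 of 70 members had a peak at all.

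Imprinted genes were a check on the separation of strain and parent. Of 57 peaks at 52 known imprinted genes 32 had a parent effect in the joint fit (0.711% of all informative peaks did) and 1 was strain-specific, that of Impact, which is expressed from the paternal allele. Its B6 share was 57.5 and 58.4% in B6/CAST, where B6 is maternal, and 83.2 and 78.3% in CAST/B6, where it is paternal. Both a strain effect (log2 ratio 1.20 ± 0.10 SE) and a parent effect were thus called in the same peak.

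The matDKO/CAST and epiblast libraries took no part in the calls. In matDKO/CAST the direction of the B6 to CAST ratio was the same at 880 of 918 peaks, and 271 passed on their own with the same strain higher (146 B6 and 125 CAST), against 1.78 and 0.978% of all informative peaks with the maternal and the paternal allele higher. In the opposite direction 9 passed. These libraries were shallower, at 3.86 and 2.70 M allelic reads, with a median of 112 reads per called peak. With each library as a block for its allele columns 650 peaks passed, and in a fit that shared its spread with the wild-type crosses 511, whereas DESeq2 called 138. Median log2 ratios of B6-higher peaks were 1.36 (B6/CAST) and 1.17 (matDKO/CAST), and those of CAST-higher peaks −1.38 and −1.26. At the Hjurp peak the B6 share was 12.2 and 13.04%, at AW146154 21.1 and 20.3%, and at Mpp7 96.6 and 94.7%, all near the wild-type values. Ubxn7 (44.0 and 50%) and Slc35e1 (54.2 and 28.6%) were not, and for Slc35e1 the difference from B6/CAST was not called.

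Of the 918 peaks 22 differed between matDKO/CAST and B6/CAST in a test of the difference (1.06% of all informative peaks did). Of these 16 were CAST-higher, and 14 had a higher maternal share in matDKO/CAST. Fkbp9, a peptidyl-prolyl isomerase of the endoplasmic reticulum, had a B6 share of 32.8 and 34.3% in B6/CAST, against 56.2 and 59.2% with matDKO mothers. Zfp94 had 44.3 and 40.9% against 82.3 and 82.0%. The variants by which 129 reads are told from CAST add maternal reads alone in matDKO/CAST, and their part in these differences was not tested.

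The epiblast libraries held 4.69 to 6.06 M allelic reads, except CAST/B6 replicate 3 with 1.36 M. In epiblast 750 of the 918 peaks matched an informative epiblast peak. The direction was the same at 736, and 413 passed in the joint fit with the same strain higher (250 B6 and 163 CAST), where 5.80% of all matched peaks passed in either direction and 3.51 and 2.58% of all informative epiblast peaks were B6-higher and CAST-higher. In both epiblast crosses on their own 117 passed, against 0.841% of informative epiblast peaks. None passed in the opposite direction. Without CAST/B6 epiblast replicate 2 the count was 89 and without CAST/B6 epiblast replicate 3 it was 266. Median log2 ratios at B6-higher peaks were 1.30 in ExE and 1.11 in epiblast, and at CAST-higher peaks −1.31 and −0.93. At Hjurp the epiblast shares were 10.2 to 11.95%, at AW146154 18.0 to 21.3% and at H2-D1 67.6 to 73.5%, as in ExE. The ExE ratios are those by which the peaks were chosen, and the epiblast ratios are not.

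**Figure D4:**
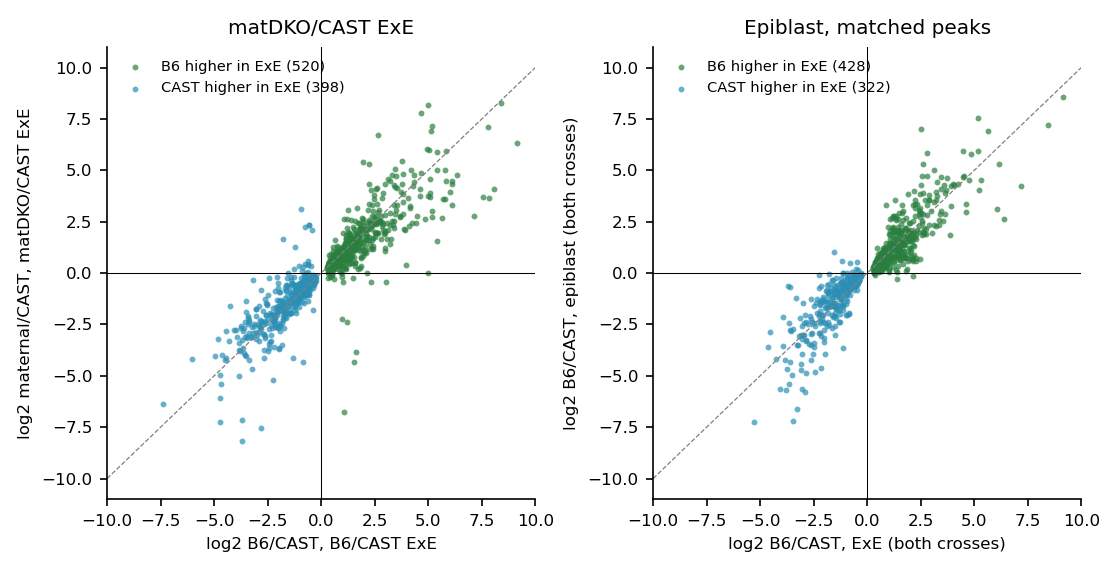
Log2 ratio of B6 to CAST reads of the strain-specific peaks in matDKO/CAST ExE against B6/CAST ExE (918 peaks, 880 in the same direction) and in epiblast against ExE of both crosses (750 matched peaks, 736 in the same direction). The dashed line marks equal ratios.

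The difference of the strain effect between the tissues was tested at 17077 matched peaks and called at 30 (0.176%), 9 of them strain-specific in ExE. Fkbp9 had a B6 share of 29.8 to 34.3% in ExE and 46.3 to 53.3% in epiblast (log2 difference −1.13, adjusted p = 0.00045). Plxdc2, a transmembrane protein with a plexin domain, had 27.4 to 34.0% against 42.0 to 51.6%. The peak near Mc3r, a melanocortin receptor gene, had 6.52 to 9.86% against 20 to 55.6%. In these peaks, chosen by the smallest p-values for the difference, the tissues did not overlap. This follows largely from the choice and is no further test. The peak near Gm28610 was CAST-higher in both, with 28.4 to 37.5% in ExE and 3.23 to 11.2% in epiblast. The peak near Gm18859 was not called in ExE (39.6 to 71.8%) and was strongly B6-higher in epiblast (88.9 to 96.4%). With the replicate block 234 differences were called (108 higher and 126 lower in ExE, against 8 and 22 without it), and with 1 library left out 3 to 45, the fewest (3) without CAST/B6 epiblast replicate 2.

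H3K36me3 marks the bodies of transcribed genes. Of the strain-specific H3K4me3 peaks 249 overlapped an informative H3K36me3 peak, and 48 of these had a strain effect in H3K36me3 (19.3%), against 7.85% of all informative H3K4me3 peaks that overlapped one (8.22% of all H3K36me3 peaks). The same strain was higher in 42 and the other in 6. Examples are Hjurp (log2 ratio −2.32 in H3K36me3 and −2.99 in H3K4me3) and Oas1g, an antiviral oligoadenylate synthetase (−2.83 and −1.62), both towards CAST. At the first Uggt2 peak both marks were towards B6 (0.87 and 0.55). At AW146154 the values were −0.78 and −2.13. Lrrc10 and Atp9a overlapped H3K36me3 peaks with log2 ratios of −0.04 and −0.02, against 2.01 and 3.91 for H3K4me3.

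H3K27me3 is the mark of Polycomb repression, laid down by EZH2. Of 380 strain-specific peaks that overlapped an informative H3K27me3 peak, 165 had a strain effect in it (43.4%), against 29.8% of all informative H3K4me3 peaks that overlapped one (23.3% of all H3K27me3 peaks). The direction was mixed, with the same strain higher in 76 and the other in 89. Opposite directions were seen near Srl (log2 ratio 2.46 in H3K27me3 and −3.93 in H3K4me3), at the second Uggt2 peak (−1.99 and 0.93), at Nptx1 (0.61 and −1.60), at Fam83a (0.80 and −3.04) and at Eps8l1 (−0.88 and 2.16). The same direction was seen at Rsph1 (−1.37 and −1.91), in the run with high input, and near Mc3r (−0.58 and −3.69). The marks were made from the same pools of embryos, and H3K27me3 and H3K36me3 peaks are broad, so several H3K4me3 peaks can share 1 of them.

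**Figure D5:**
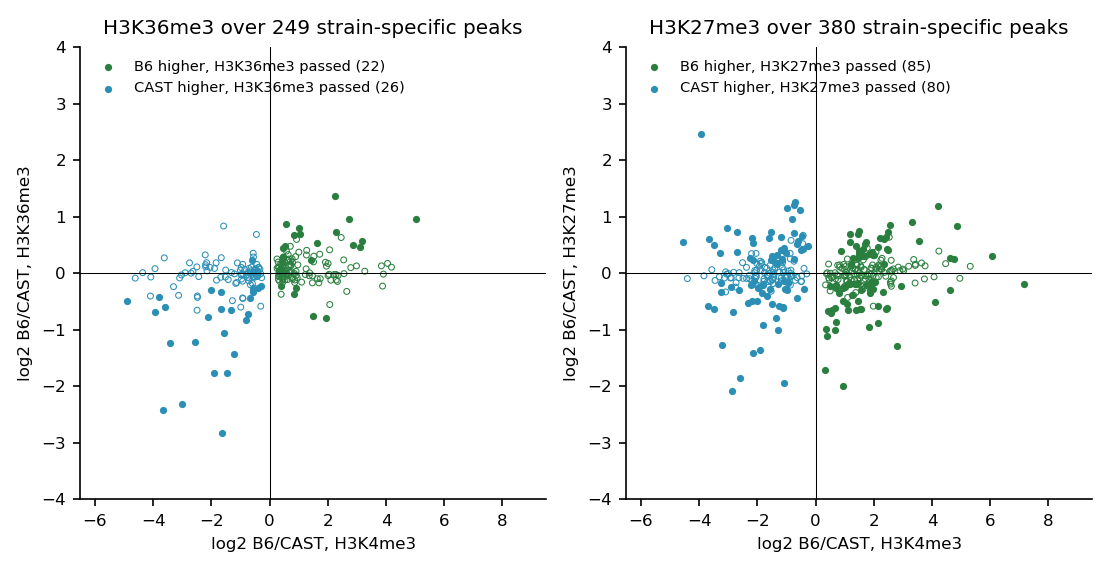
Log2 ratio of B6 to CAST reads for H3K27me3 and H3K36me3 (y axes) against that for H3K4me3 (x axis) at strain-specific ExE peaks that overlap a peak of the other mark (380 and 249), with called ratios of the other mark in colour. For H3K36me3 42 of 48 called peaks lie in the quadrants of equal sign, for H3K27me3 76 of 165.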

How the data were processed

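Members and gene lists were chosen with earlier results of these data known. Groups were taken from the labels. The authors trimmed reads with Trim Galore, aligned them with Bowtie2 2.3.2 to GRCm38 masked at B6 and CAST variants, assigned reads over variants to a parent, and deposited raw read counts per peak and allele. For matDKO/CAST they left out variants shared by 129 and CAST, and added reads assigned to 129 to the maternal counts. The authors' RPKM per 1 kb window, from all reads of either allele, were averaged over peaks for total signal and input. Inputs were not subtracted.

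Maternal and paternal counts were compared per cross by edgeR 4.0.16 in R 4.3.3, quasi-likelihood F test (TMM factors per allele column, two-sided, Benjamini-Hochberg adjustment over 23211 informative autosomal peaks). A joint fit with 1 mean per cross and allele gave log2 ratios. The same fits were made for matDKO/CAST, epiblast, H3K27me3 and H3K36me3. Epiblast peaks were matched at an overlap of at least 0.5 of the shorter peak. In simulated counts over 23211 peaks, 85% of changes of log2 1 and 100% of log2 2 were called in both crosses. The changes were placed only in peaks with higher read counts, and the allele columns were drawn independently. These rates therefore do not cover peaks with few reads. DESeq2 1.42.0 was an alternative. Start sites came from GENCODE vM21, by the deposited start and end columns. In 17.9% of peaks the name carries other coordinates. A further 51 columns of per-sample values were not used. Replicates are separate pools of embryos, so p-values cover the spread between pools. Allelic reads in peaks numbered 3.38 to 6.58 M per ExE H3K27me3 library and 1.49 to 2.11 M per H3K36me3 library, and depth for H3K4me3 is given with the results.

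Each library's allele columns share a pool and deviated together (correlation 0.168 in B6/CAST, 0.153 in CAST/B6). The library is therefore a true block, used as an alternative.

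Peaks are named by a rule. Per direction it takes the 7 largest ratios at protein-coding start sites and the 3 largest beyond 10 kb of any start site (200 or more reads for both), the 4 with the most reads, up to 3 members per gene list, and the 5 smallest p-values for the tissue difference. It also takes 5 runs. A peak that meets it is not reported here. Other peaks were named after their values were seen. "Near" marks the gene with the nearest start site.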

Additional observations from a re-analysis of the deposited data

Results flagged for a closer look

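Tests of a difference between groups singled out the following results. The strain effect differed between ExE and epiblast at 30 peaks, 8 with a higher B6 to CAST ratio in ExE and 22 with a lower one (108 and 126 with the replicate block), and 12 of the 30 held a start site. Higher in ExE, on the log2 scale, were the peaks near Gm28610 (difference 2.52), Rims2 (2.37), Gm6361 (1.93) and Braf (1.58) and that of Fbxl2 and Susd5 (1.16). At the Fbxl2 and Susd5 peak, whose genes encode an F-box protein and a membrane protein, the B6 share was 58.9 to 67.9% in ExE and 37.1 to 50.5% in epiblast. Near Rims2 it was 63.8 to 72.1% and 13.8 to 45.5%, and near Braf 50.8 to 61.7% and 28.3 to 33.3%. Lower in ExE were the peaks near Gm18859 (−3.96), Mc3r (−3.08) and Gm27361 (−1.70) and those of Fkbp9 (−1.13) and Plxdc2 (−0.94). Near Gm27361 the B6 share was 37.9 to 44.7% in ExE and 60.5 to 73.7% in epiblast, so that the higher strain was not the same. All 10 passed in edgeR's test of the difference, and 9 of them were lost in at least 1 alternative.

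The ratio of maternal to paternal reads differed between B6/CAST and matDKO/CAST at 22 strain-specific peaks. The log2 difference was −2.83 at Ubxn7, −2.57 at Zfp94 and −1.38 at Fkbp9, all with more maternal reads in matDKO/CAST. In 9 of the 22 matDKO/CAST passed with the other strain higher. At Ltk, a receptor tyrosine kinase gene, the B6 share was 34.99 and 42.4% in B6/CAST, against 85.1 and 82.6% with matDKO mothers, and at Tescl, next to Zfp94, it was 33.3 and 28.4% against 72.4 and 72.3%. Over all informative peaks 247 differed, 220 of them towards more maternal reads in matDKO/CAST, and 71 lay on chromosome 2 and 59 on chromosome 7. The part of the 129 background in this was not tested.

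A parent effect was present at 4 strain-specific peaks. At Impact the log2 ratio of maternal to paternal reads, averaged over the crosses, was −0.78. At Cbx7, which encodes a Polycomb subunit, the B6 share was 48.2 and 43.7% in B6/CAST and 24.97 and 24.8% in CAST/B6. The others were the peaks near Gm44959 (24.2, 28.1, 7.14 and 3.90% in B6/CAST and then CAST/B6) and near Micu2 (64.1, 85.0, 98.1 and 100.0%).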

How the results depend on the processing

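The strain-specific count of 918 was 176 with DESeq2, 480 at an adjusted p-value below 0.01, and 304 to 654 without 1 library (a pooled fit in which the lone library was taken to vary like the others). The 4408 joint calls became 1909, 2749 and 2457 to 3110 in these settings, and 6099 with the replicate block. All 176 DESeq2 calls were among the 918, as were 905 of the 1161 calls with the replicate block. At the called peaks, matDKO/CAST passed at 271, with DESeq2 at 138, with the replicate block at 650, in a fit of 6 groups at 511, and without 1 library at 281 to 395. Epiblast passed at 413, at 599 with the replicate block and at 89 to 347 without 1 library. The 30 tissue differences became 234 with the replicate block and 3 to 45 without 1 library. The share with a start site was 47.7% and became 36.2% with protein-coding genes alone and 65.0% with at least 200 reads. The share with a called neighbour was 24.2% and became 14.5% within 50 kb, 38.8% within 250 kb and 56.9% for joint calls. The stricter threshold lowers a count by construction. Counts without 1 library came from pooled fits. With all libraries these fits called 1067 strain-specific peaks and passed 511 in matDKO/CAST, so the like counts fell. Only the tissue differences both fell and rose, and the cause was not tested. The input minimum and the block for the other marks were added after seeing the data, and neither moved a count by over 1.5 times. For single peaks the alternatives were computed for the joint fit, a weaker criterion than passing in both crosses. Of 725 values for 66 named strain-specific peaks, 722 stayed past its threshold, 3 did not (Rpl21 and Sox21 without 1 library, Amn with DESeq2), and 0 changed direction. Of 100 values for the 10 named tissue differences 23 were lost and 0 changed direction. Intervals cover counting error alone, and peaks with few reads can be called only where the effect is large.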
